A study of Mus musculus with 45 samples.

Results

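The glycolysis and hypoxia response genes described here are 35 mouse genes chosen by symbol: the enzymes that take glucose to lactate, the carriers that move glucose and lactate across the cell membrane, the oxygen sensors, and well-known targets of the hypoxia-inducible factor (HIF). The symbols matched 36 entries of the 55335 in each of 2 tables of gene expression, because Aldoa has 2 entries, both on the minus strand of chromosome 7 (GRCm38, 126795234 to 126800751 and, upstream, 126800790 to 126809108). Expression was measured by RNA sequencing in CT26, a mouse colon carcinoma line, and Hepa1-6, a mouse liver line, grown in 6-well plates. In the drug experiment, cells labelled WT received either DMSO, the solvent, or a compound known from the labels only as stk, and were collected after 48 hours. In the knockdown experiment, stable lines without further treatment were collected 24 hours after plating. In CT26 these were the SOAT1-knockdown lines sh1, sh2 and sh3, each named for 1 hairpin against Soat1, and a lucif-knockdown control (shLucif). In Hepa1-6 they were a lucif-knockdown control and a scramble-knockdown control. Soat1 encodes an enzyme that esterifies cholesterol. Each of the 10 groups has 3 libraries. No label says whether the libraries of a group came from separate cultures, whether a knockdown line is a clone, or how the hairpins were delivered, so p-values measure the spread between these libraries, which may be technical.

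Glycolysis splits glucose into pyruvate in the cytosol. Pyruvate is then reduced to lactate by lactate dehydrogenase and exported, or it enters mitochondria, where pyruvate dehydrogenase kinases such as Pdk1 and Pdk3 hold back its oxidation. When oxygen is plentiful, the prolyl hydroxylases Egln1 and Egln3 mark the HIF alpha subunits, of which Hif1a is the most widely expressed, for destruction. When oxygen is scarce, HIF builds up and binds short DNA elements near its targets, which include glycolytic enzymes, Slc2a1, Vegfa, Car9, Bnip3 and the gene of the oxygen sensor Egln3 itself. Tumour lines often run glycolysis at a high rate even in air.

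Levels are given as FPKM, a unit that corrects the fragments of a gene for its length and for the size of the library. Read totals are not known, so no counting interval can be given, and relative depth read from the lowest values lay between 0.87 and 1.163 over the 30 libraries, with correlations between libraries of a group of 0.9908 to 0.9937. Soat1 stood at 19.9 ± 0.254 FPKM (SD, n = 3) in CT26 shLucif and at 16.4%, 17.4% and 13.0% of that in sh1, sh2 and sh3. In Hepa1-6 it stood at 0.139 FPKM with DMSO and 0.146 with scramble, but at 13.05 in the libraries labelled Hepa1-6 shLucif. Those 3 libraries also went against the liver label: Alb averaged 1.49 FPKM in them against 135 with scramble, and the summed level of 17 hepatocyte markers was 93.8 to 102.6 against 745.8 to 796.7, with 5 and 9 of the 17 at 1 FPKM or more. In CT26 every library had Alb at 0, while Afp, another hepatocyte marker, averaged 4.95 FPKM with DMSO. The epithelial list of 14 markers summed to 24.7 to 48.2 FPKM in CT26, against 1495.6 to 1543.6 in Hepa1-6 with DMSO. In CT26 with DMSO, Krt20 averaged 26.5 FPKM, and 1 of the 14 averaged 1 FPKM or more. The fibroblast list of 12 markers summed to 748.1 to 758.5 FPKM there and to 594.9 to 632.7 in Hepa1-6 with DMSO. Leukocyte markers summed to at most 4.36 FPKM and endothelial markers to at most 0.643 in any library. As these are bulk samples, fewer cells of a type and less RNA per cell cannot be told apart.

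HIF recognises a core of ACGTG or GCGTG, read here on both strands (as CACGT and CACGC on the other), with the palindrome CACGTG counted on each. In the window of 300 bases around a start site (RefSeq, GRCm38.p6), 36 of the 45 start sites found for 32 of the 35 genes held at least 1 such core (80.0%). The same was true of 43.8% of all 32851 start sites and of 62.3% of the 11537 that belong to genes expressed at 1 FPKM or more in 3 libraries of a table. The 250 bases before the start are printed for 5 genes that stand for the groups described below, a glucose carrier, a lactate enzyme, a mitochondrial gatekeeper and a pair of HIF targets, each 5′ to 3′ on the gene's strand with the cores in capitals. They lie at chr4:119108495-119108744 (plus strand) for Slc2a1, chr7:46845554-46845803 (plus) for Ldha, chrX:93832151-93832400 (minus) for Pdk3, chr7:138909507-138909756 (minus) for Bnip3 and chr14:45318573-45318822 (minus) for Ero1l.
Slc2a1: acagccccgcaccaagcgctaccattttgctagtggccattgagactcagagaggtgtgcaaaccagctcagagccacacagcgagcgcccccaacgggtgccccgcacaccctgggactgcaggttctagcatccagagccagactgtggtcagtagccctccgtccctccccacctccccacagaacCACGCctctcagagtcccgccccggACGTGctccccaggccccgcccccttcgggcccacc
Ldha: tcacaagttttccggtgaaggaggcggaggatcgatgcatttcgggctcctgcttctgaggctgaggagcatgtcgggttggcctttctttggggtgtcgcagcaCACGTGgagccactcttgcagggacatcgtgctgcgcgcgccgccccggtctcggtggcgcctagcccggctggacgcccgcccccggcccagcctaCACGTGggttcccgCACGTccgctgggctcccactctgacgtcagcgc
Pdk3: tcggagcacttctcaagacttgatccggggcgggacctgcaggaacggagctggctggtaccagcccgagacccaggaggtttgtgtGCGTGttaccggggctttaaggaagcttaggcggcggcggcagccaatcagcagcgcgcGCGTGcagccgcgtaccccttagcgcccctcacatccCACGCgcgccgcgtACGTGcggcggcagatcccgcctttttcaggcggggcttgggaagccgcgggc
Bnip3: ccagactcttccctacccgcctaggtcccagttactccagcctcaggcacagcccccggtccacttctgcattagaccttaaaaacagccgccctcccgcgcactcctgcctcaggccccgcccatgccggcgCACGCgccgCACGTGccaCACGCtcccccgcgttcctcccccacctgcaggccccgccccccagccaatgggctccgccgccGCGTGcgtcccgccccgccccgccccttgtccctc
Ero1l: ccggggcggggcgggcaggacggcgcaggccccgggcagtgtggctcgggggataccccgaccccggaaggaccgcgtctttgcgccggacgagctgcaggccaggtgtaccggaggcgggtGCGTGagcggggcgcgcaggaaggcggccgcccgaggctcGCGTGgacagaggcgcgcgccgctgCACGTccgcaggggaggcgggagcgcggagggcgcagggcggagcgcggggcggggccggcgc
These stretches hold 2, 5, 4, 5 and 3 cores in that order. A core is a match of letters and was not tested for binding.

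Of the 36 entries, 33 reached 1 FPKM in some library. Slc2a3, a second glucose carrier, Ldhb, the other main subunit of lactate dehydrogenase, and Adm, a vasodilator peptide, did not: their highest values in any library were 0.106, 0.0986 and 0.44 FPKM. The most abundant were Aldoa and Tpi1 of upper glycolysis and Gapdh, Pgk1, Pgam1, Eno1, Pkm and Ldha of the later steps. All of these were above 100 FPKM in every library. The glycolytic enzymes among the members made up between 0.668% and 1.251% of all FPKM in a library. Within CT26 knockdown libraries that share was 0.822% to 0.851% in the shLucif control, 0.668% to 0.721% under sh1, 0.694% to 0.710% under sh2 and 0.839% to 0.916% under sh3. The sh1 and sh2 libraries were thus below all shLucif libraries, whereas the sh3 range overlapped that of shLucif.

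**Figure D1:**
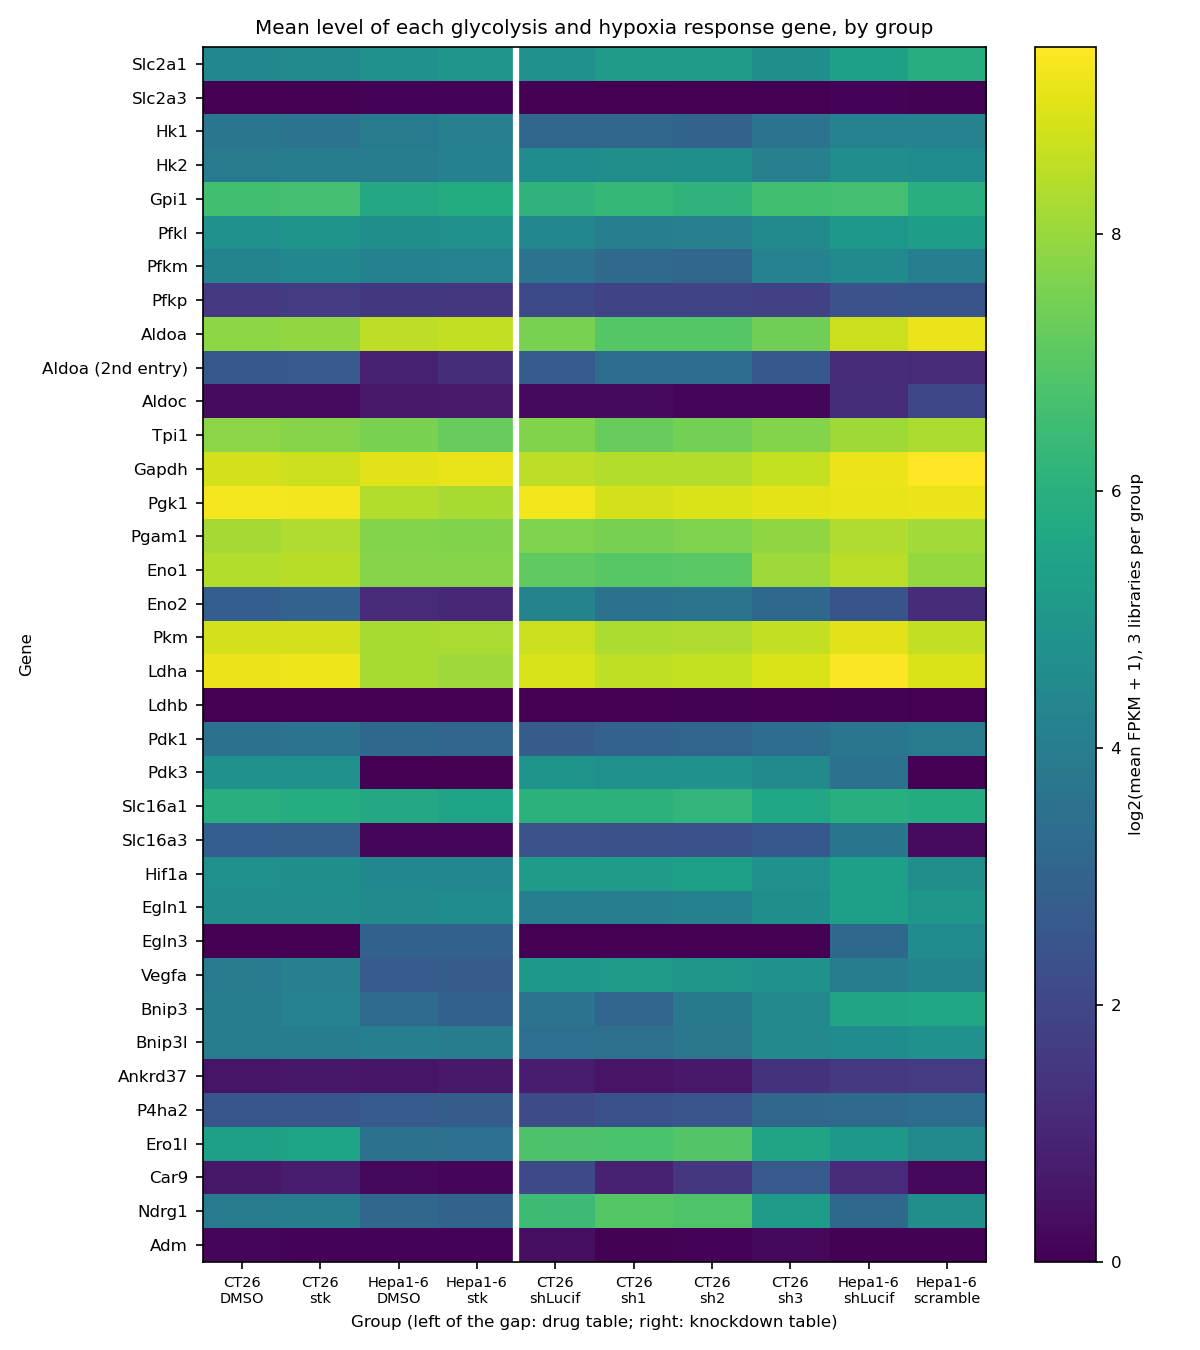
Mean level of each gene in each of the 10 groups, as log2(mean FPKM + 1), with the 4 drug groups left of the gap and the 6 knockdown groups right of it. Pdk3 and Slc16a3 are dark in Hepa1-6 except in the libraries labelled Hepa1-6 shLucif, Egln3 is dark in all CT26 groups, and the 2 tables were normalized separately.

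Between the lines at rest, CT26 with DMSO carried more mRNA for lactate production than Hepa1-6 with DMSO. The same held for lower glycolysis, from Gapdh to pyruvate, except for Gapdh itself, which was lower in CT26. In 3 gene pairs a member was expressed in both lines while the other was at or near 0 in CT26 or in Hepa1-6. Of 30 entries tested, 23 differed (limma, adjusted p under 0.05), against 76.8% of all genes, so the share that differed was that of the background. By direction, 18 were higher in CT26 (38.5% of all genes were) and 5 were lower (38.4%), and the median log2 difference was 0.34 over the members against -0.01 over all genes. All 5 tested genes of pyruvate and lactate handling were higher in CT26, as were 5 of the 6 of lower glycolysis, whereas 5 of the 9 entries of upper glycolysis did not pass. Pdk3 and Slc16a3, both among the 18 higher, reached the minimum for testing only in CT26. Egln3, among the 5 lower, reached it only in Hepa1-6. The calls of these genes add no support beyond their values.

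The clearest contrast was in the pyruvate dehydrogenase kinases. Pdk3 measured 27.2, 25.7 and 26.8 FPKM in CT26 and was listed at 0 in all 3 Hepa1-6 libraries. Pdk1 was close in both, at 10.7 ± 0.0667 and 8.15 ± 0.431 FPKM (SD, n = 3; log2 difference 0.36, SE 0.05, adjusted p = 5.21e-05). The oxygen sensors split the other way. Egln3 was listed at 0 in every CT26 library of both experiments, and measured 7.08, 6.41 and 6.65 FPKM in Hepa1-6 with DMSO. Egln1, its broadly expressed relative, stood at 23.8 ± 0.407 and 22.3 ± 0.699 FPKM and did not pass (adjusted p = 0.163). Among the lactate carriers, Slc16a3, which exports lactate from glycolytic cells, read 5.57, 5.97 and 6.54 FPKM in CT26 and 0.0429, 0.0801 and 0.151 in Hepa1-6 (log2 difference 2.69). Slc16a1, the carrier that moves lactate either way, differed little by comparison, at 61.8 ± 1.13 and 51.5 ± 0.574 FPKM, with a log2 difference of 0.26 (SE 0.03, adjusted p = 9.08e-06).

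Ldha, which makes lactate, measured 588, 565 and 593 FPKM in CT26 against 301, 301 and 287 in Hepa1-6 (log2 difference 0.97, SE 0.04, adjusted p = 3.87e-10). Pgk1, the first ATP-yielding enzyme of the pathway, read 626, 656 and 635 FPKM against 336, 335 and 327 (log2 difference 0.94, adjusted p = 3.81e-09). In neither gene did the lines overlap. Eno1, Pkm and Pgam1 were higher in CT26 by 0.65, 0.59 and 0.50 on the log2 scale, and Gpi1, which interconverts the sugar phosphates at the top of the pathway, read 102, 99.4 and 81.1 FPKM against 52.1, 51.5 and 51.0 (log2 difference 0.85, SE 0.09). Eno1b, the near copy of Eno1, held 52.7% of the FPKM of that pair in CT26 and 15.3% in Hepa1-6, and reads may be shared between the pair. Pgam1-ps2 and Pgk1-rs7, near copies of Pgam1 and Pgk1, averaged 264 and 98.5 FPKM in CT26 and 182 and 50.1 in Hepa1-6. Reads may be shared in these pairs too. Aldoa, the muscle and tumour aldolase, was lower in CT26 instead, at 225, 235 and 227 FPKM in CT26 and 384, 374 and 342 in Hepa1-6 (log2 difference -0.67, SE 0.05, adjusted p = 2.07e-07). Slc2a1, the main glucose carrier, was also lower in CT26, at 20.5 ± 0.709 against 26.5 ± 2.68 FPKM (log2 difference -0.35, adjusted p = 0.00052). Gapdh (log2 difference -0.23, adjusted p = 0.0349) and P4ha2, a collagen prolyl hydroxylase (-0.15, adjusted p = 0.0274), were just past the threshold and lost their call when single libraries were left out, with adjusted p up to 0.147 and 0.089.

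Of the HIF targets outside glycolysis, Ero1l, an oxidase of the endoplasmic reticulum, measured 41.2, 41.5 and 38.9 FPKM in CT26 and 10.8, 10.7 and 10.4 in Hepa1-6 (log2 difference 1.83, SE 0.04, adjusted p = 1.92e-12). Vegfa, the angiogenic growth factor, read 14.2, 13.7 and 14.1 against 5.28, 5.87 and 5.41 FPKM (1.20, SE 0.06). Eno2, the neuronal enolase, is itself an enzyme of lower glycolysis, and read 6.11, 5.69 and 6.54 against 1.27, 1.14 and 1.1 FPKM (1.71, SE 0.08). The stress gene Ndrg1 read 14.5, 14.8 and 13.2 against 8.17, 8.13 and 7.02 FPKM (0.79, SE 0.08), and Bnip3, a receptor for the removal of mitochondria, 15.1, 15.9 and 13.3 against 9.71, 8.85 and 7.90 (0.68, SE 0.12). In each of these 5 genes the lowest CT26 library was above the highest Hepa1-6 library, as in 20 of the 30 entries tested and in 39.9% of all genes. The second entry of Aldoa, a gene model just upstream of the first, was low in both lines but higher in CT26, at 5.39, 5.97 and 4.09 against 1.26, 0.551 and 0.619 FPKM (1.77, SE 0.15). Bnip3l, Pfkm, Pfkl, Egln1, Hk1, Pfkp and Hk2 did not pass, with adjusted p between 0.11 and 0.568.

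Of the 54 other genes of glucose metabolism, 39 were tested, and 21 were higher and 14 lower in CT26. Of 46 other hypoxia genes, 39 were tested, and 13 were higher and 23 lower. Over all genes, 38.5% were higher and 38.4% lower. Pklr, the liver pyruvate kinase, averaged 0.00486 FPKM in CT26 and 9.05 in Hepa1-6. Epas1, the gene of HIF-2 alpha, averaged 0.00281 and 5.31 FPKM, so Hif1a (25.6 ± 0.266 and 20.2 ± 0.294 FPKM) was the more abundant HIF subunit in both lines. Plod2, a collagen lysyl hydroxylase, ran the other way, at 7.26 FPKM in CT26 and listed at 0 in Hepa1-6. Igfbp3, a binding protein for growth factors, was listed at 0 in CT26 and averaged 152 FPKM in Hepa1-6.

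**Figure D2:**
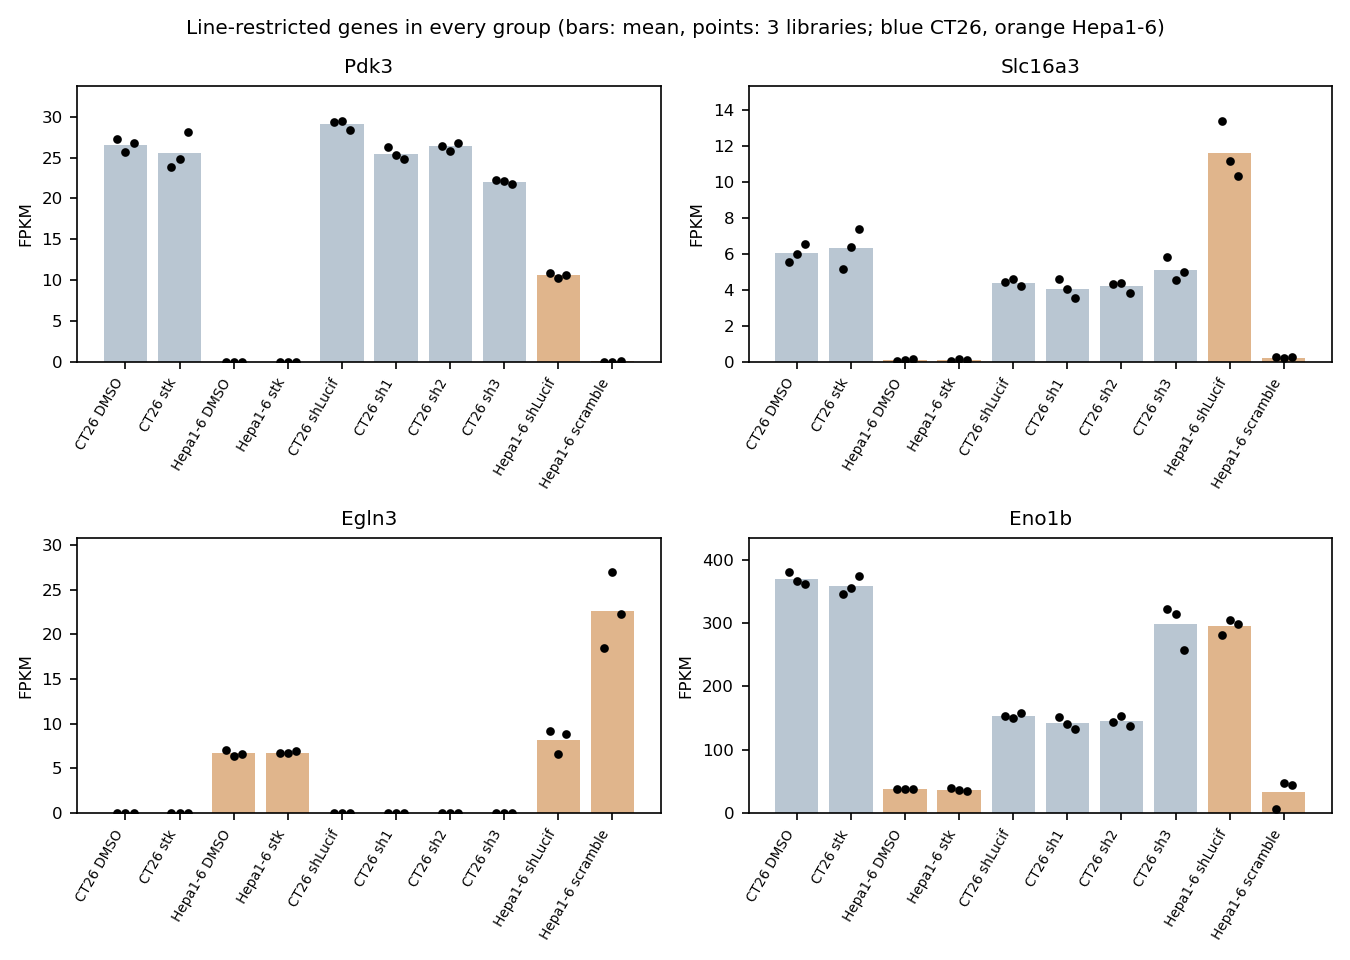
FPKM of Pdk3, Slc16a3, Egln3 and Eno1b, the near copy of Eno1, in all 10 groups, where bars are means, points are the 3 libraries and colours mark the labelled line. The libraries labelled Hepa1-6 shLucif have Pdk3 near 10.6, Slc16a3 near 11.7 and Eno1b near 295 FPKM, unlike the other Hepa1-6 groups.

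With stk, the lactate carrier Slc16a1 fell in Hepa1-6, and no other member passed in either line. None of 29 entries passed in CT26 (limma, adjusted p under 0.05), where 0.748% of all genes did, and 4 had an unadjusted p under 0.05, as 14.6% of all genes did. The 4 lowest p were those of Slc16a1, Vegfa, Ero1l and Pgam1, with adjusted p of 0.246, 0.269, 0.29 and 0.308. Slc16a1 read 60.7, 62.9 and 61.9 FPKM with DMSO and 58.7, 55.8 and 57.9 with stk, a log2 difference of -0.10 (95% interval -0.18 to -0.02). Vegfa read 14.2, 13.7 and 14.1 and then 17.8, 14.8 and 16 FPKM, a log2 difference of 0.20 (0.03 to 0.36). Ero1l and Pgam1 differed by 0.10 (0.01 to 0.19) and 0.14 (0.01 to 0.28). For the major enzymes the intervals were narrow: Ldha -0.06 to 0.10, Eno1 -0.02 to 0.12, Pkm -0.13 to 0.07 and Pgk1 -0.17 to 0.07. They were wide for Hk1, the ubiquitous hexokinase (-0.51 to 0.32), and for Bnip3 (-0.12 to 0.50).

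In Hepa1-6, 1 of 28 entries passed, against 1.53% of all genes (0.849% lower). Slc16a1 measured 51.9, 51.8 and 50.9 FPKM with DMSO and 43.9, 45.1 and 43.6 with stk, with every stk library below every DMSO library. It fell by 0.22 on the log2 scale (SE 0.03, adjusted p = 0.0422), and the call was lost when any 1 of the 6 libraries was left out (adjusted p 0.0737 to 0.133). The next members by p were Pgk1, Tpi1, Bnip3 and Ldha, and none of them passed. Pgk1 read 336, 335 and 327 FPKM with DMSO and 298, 302 and 283 with stk (log2 difference -0.18, adjusted p = 0.0568). Tpi1, the triose phosphate isomerase, read 180, 203 and 174 and then 158, 156 and 145 FPKM (-0.28, adjusted p = 0.0716). Bnip3 read 9.71, 8.85 and 7.90 and then 6.24, 7.32 and 6.22 FPKM (-0.37, adjusted p = 0.0799), and Ldha 301, 301 and 287 and then 272, 272 and 256 FPKM (-0.15, adjusted p = 0.081). In all 4 genes, which were picked by their p, the stk libraries lay below the DMSO libraries, as in 8 of the 28 entries tested and in 14.6% of all genes. Hk2, the inducible hexokinase, and Slc2a1 had values on the other side, 14.6 ± 0.762 and 16.7 ± 0.509 FPKM for Hk2 (0.18, adjusted p = 0.101) and 26.5 ± 2.68 and 30.4 ± 1.15 FPKM for Slc2a1 (0.20, adjusted p = 0.174). With an unadjusted p under 0.05 there were 9 members (23.8% of all genes), and the median log2 difference was 0.003 over the members and over all genes alike.

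The response to stk was not shown to differ between the lines for any member: 0 of 30 passed the test of the difference, against 0.304% of all genes, and 7 had an unadjusted p under 0.05, as 13.9% of all genes did. The widest estimated gap was that of Bnip3, at 0.56 on the log2 scale (95% interval 0.18 to 0.94, adjusted p = 0.196). Ero1l (0.19, 0.07 to 0.30) and Ldha (0.17, 0.07 to 0.28) had adjusted p of 0.158 and 0.172. None of the other genes of glucose metabolism passed with stk in CT26 (34 tested) or in Hepa1-6 (36 tested), nor did any of the other hypoxia genes (31 and 34 tested). In the test of the difference between the lines, 1 of 39 other hypoxia genes passed and none of 39 other genes of glucose metabolism.

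**Figure D3:**
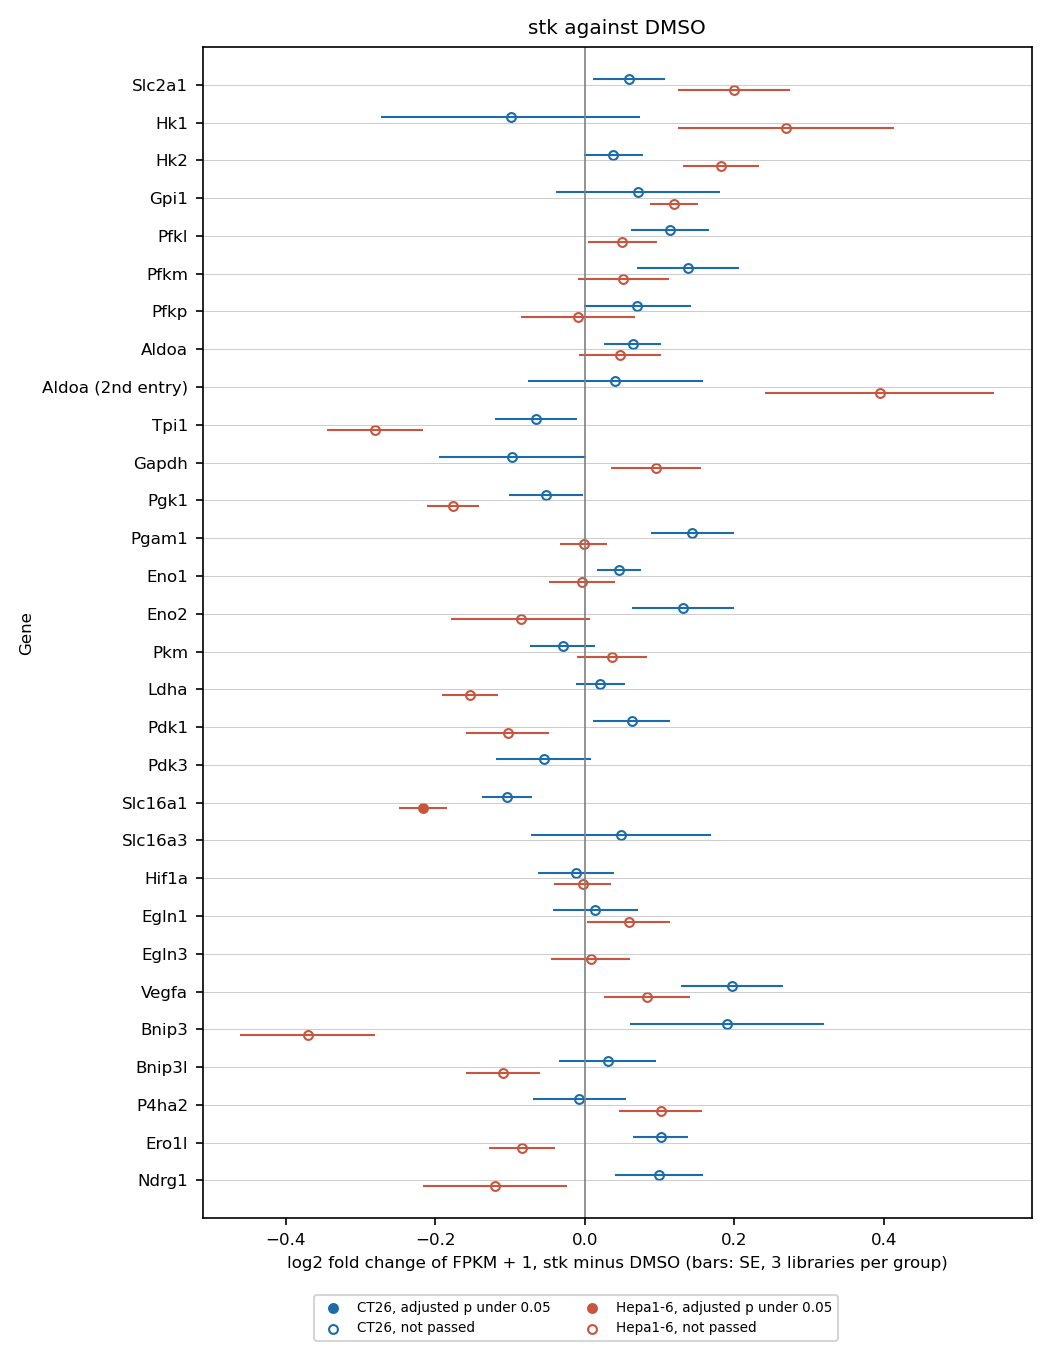
Log2 fold change of FPKM + 1, stk minus DMSO, for each tested gene in CT26 (blue) and Hepa1-6 (red), where bars are standard errors over 3 libraries per group and filled points passed an adjusted p of 0.05. Slc16a1 in Hepa1-6, at -0.22, is the filled point.

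The CT26 lines with a Soat1 hairpin differed from shLucif in 2 ways in these genes, although Soat1 was lower in all 3. The labels name no more than 1 line for each hairpin, so loss of Soat1, the hairpin and the line cannot be told apart. With hairpins sh1 and sh2, mRNAs of several glycolytic enzymes (Aldoa, Pgk1, Ldha, Pkm, Pfkl, Pfkm) were lower than with shLucif, while Slc2a1 and Ndrg1 were higher. With sh3, Eno1, Pfkm, Gpi1 and Egln1 were higher than with shLucif, as were the HIF targets Bnip3l and P4ha2, and Ndrg1, Ero1l, Hk2 and Hif1a were lower. For sh1, 13 of 31 entries passed, against 37.8% of all genes: 3 were higher (19.1% of all genes were) and 10 lower (18.7%). For sh2, 14 passed, against 38.9%: 6 higher (18.9%) and 8 lower (20.0%). For sh3, 19 passed, against 52.5%: 10 higher (30.9%) and 9 lower (21.6%). The 10 include Ankrd37, which reached the minimum for testing through sh3. The 3 comparisons share the shLucif libraries, so they are not independent of each other. For the mean of the 3 hairpins against shLucif, 17 of 31 passed (43.1% of all genes did), 8 higher (23.4%) and 9 lower (19.8%).

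Slc2a1, the carrier at the entry of the pathway, read 25, 26.4 and 26.9 FPKM with shLucif, 37.6, 33.1 and 36.9 with sh1, 32.0, 34.4 and 37.4 with sh2, and 24.6, 24.7 and 25.3 with sh3. It rose with sh1 and sh2, by 0.44 and 0.39 on the log2 scale (SE 0.06, adjusted p = 0.000222 and 0.000502), without overlap, and with sh3 the difference was -0.07 (adjusted p = 0.376). Hk2, the hexokinase that traps glucose in the cell, read 22.3, 23.4 and 24.1 FPKM with shLucif and 16, 16.5 and 16.2 with sh3, and fell by 0.49 there (SE 0.05, adjusted p = 1.69e-05). Its values with sh1 and sh2, 24.7 ± 1.35 and 25 ± 1.45 FPKM, overlapped those of shLucif.

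Aldoa measured 181, 188 and 195 FPKM with shLucif, 135, 120 and 117 with sh1, 122, 127 and 118 with sh2, and 180, 170 and 160 with sh3. It fell by 0.60 with sh1 and by 0.62 with sh2 on the log2 scale (SE 0.06, adjusted p = 2.02e-05 and 1.69e-05), and with sh3 the difference was -0.14 (adjusted p = 0.0644). The second Aldoa entry rose with sh1 and sh2, from 5.78 ± 0.683 to 9.50 ± 0.819 and 9.56 ± 0.783 FPKM (log2 difference 0.63 and 0.64). Pfkm and Pfkl, subunits of phosphofructokinase, the committed step, fell with sh1 (by 0.33 and 0.36) and with sh2 (by 0.46 and 0.32). Pfkm read 10.8, 10.4 and 11.9 FPKM with shLucif, 9.15, 8.49 and 8.11 with sh1, 6.89, 8.78 and 7.62 with sh2, and 17.8, 17.1 and 16.5 with sh3, where it rose by 0.59 (SE 0.08, adjusted p = 7.88e-05). In all 3 comparisons the Pfkm values were apart from those of shLucif. Pfkl read 19.3, 20.4 and 21.9 FPKM with shLucif, 16.9, 15.8 and 14.7 with sh1 and 16, 16.5 and 16.2 with sh2, and its sh3 values, 21.6 ± 1.14 FPKM, overlapped the control. Gpi1 rose with sh3, from 69.2 ± 6.99 to 95.8 ± 4.96 FPKM (log2 difference 0.47, adjusted p = 0.00071). Tpi1, the last enzyme before the payoff steps, passed with sh1, where it read 165, 146 and 145 FPKM against 200, 195 and 215 (log2 difference -0.42, adjusted p = 0.00905), and its sh2 difference was -0.21 (adjusted p = 0.144). Hk1 did not pass with any hairpin. Pfkp, the least abundant subunit, passed with sh3 (log2 difference -0.25, adjusted p = 0.0197), a call lost without shLucif replicate 1 or sh3 replicate 1 or 3 (0.0807, 0.0636 and 0.053).

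In lower glycolysis, Pgk1 was the enzyme that fell with all 3 hairpins, along with Eno2. Pgk1 read 605, 596 and 607 FPKM with shLucif, 478, 451 and 452 with sh1, 504, 456 and 484 with sh2, and 544, 535 and 507 with sh3. The log2 differences were -0.39, -0.33 and -0.19 (SE 0.04, adjusted p = 4.0e-05, 0.000146 and 0.00322). The near copy Pgk1-rs7 averaged 92.8 FPKM with shLucif and 71.5, 74.5 and 82.1 with sh1, sh2 and sh3. Reads may be shared in this pair, so which of them changed cannot be told apart. Eno2 read 20.4, 17.6 and 16 FPKM with shLucif, 8.69, 9.63 and 13.8 with sh1, 12.6, 9.68 and 12.4 with sh2, and 9.18, 6.70 and 8.75 with sh3, with log2 differences of -0.71, -0.60 and -1.05 (SE 0.17). Pkm, the tumour pyruvate kinase, read 418, 392 and 429 FPKM with shLucif, 344, 298 and 293 with sh1, and 336, 305 and 322 with sh2. It fell by 0.41 and by 0.36 (adjusted p = 0.000782 and 0.00162), with no overlap. With sh3 the Pkm difference was -0.11 (adjusted p = 0.181). Gapdh did not pass with any hairpin. The call of Eno2 with sh2 was lost without shLucif replicate 1 or sh2 replicate 2 (adjusted p = 0.0599 and 0.0612).

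Eno1 passed with sh3 and not with sh1 or sh2 (adjusted p = 0.197 and 0.266). It read 136, 134 and 151 FPKM with shLucif, 141, 122 and 118 with sh1, 127, 136 and 123 with sh2, and 290, 274 and 243 with sh3, where it rose by 0.93 (SE 0.08, adjusted p = 4.29e-06). Its coding sequence differs from that of the near copy Eno1b at 8 of 1305 bases, so reads of one may be counted for the other. Eno1b made up 52.3%, 52.7%, 53.0% and 52.6% of the FPKM of the pair with shLucif, sh1, sh2 and sh3, and which of the 2 genes changed with sh3 cannot be told apart here. Pgam1 rose with sh3 by 0.25 (adjusted p = 0.0109). It averaged 195 FPKM with shLucif and 233 with sh3, and its near copy Pgam1-ps2 averaged 185 and 215. Reads may be shared in that pair too, so which of them changed cannot be told apart.

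At the pyruvate branch, Ldha measured 479, 477 and 464 FPKM with shLucif, 386, 358 and 377 with sh1, 394, 401 and 395 with sh2, and 509, 481 and 463 with sh3. It fell by 0.34 with sh1 and by 0.26 with sh2 (SE 0.04, adjusted p = 6.87e-05 and 0.000511), and the sh3 values overlapped the control (log2 difference 0.03, 95% interval -0.06 to 0.12). The kinases Pdk1 and Pdk3 changed in opposite directions with sh2 and sh3. Pdk3 fell with each hairpin, from 29.1 ± 0.604 to 25.5 ± 0.782, 26.4 ± 0.484 and 22.0 ± 0.291 FPKM, by 0.18, 0.14 and 0.39 on the log2 scale. Pdk1 read 5.32, 5.58 and 6.83 FPKM with shLucif, 7.26, 7.38 and 8.05 with sh2 and 10.8, 9.66 and 8.91 with sh3, and rose by 0.31 with sh2 (adjusted p = 0.0122, and 0.0517 without shLucif replicate 1) and by 0.64 with sh3 (adjusted p = 7.37e-05). With sh1 it read 6.89 ± 0.129 FPKM (adjusted p = 0.0862). Slc16a1 rose with sh2, from 65.9 ± 1.73 to 73.4 ± 2.94 FPKM (log2 difference 0.15), and fell with sh3, to 50.2 ± 1.09 FPKM (by 0.38).

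Among the oxygen sensors, Egln1 read 15.2, 15.5 and 17.4 FPKM with shLucif, 15.3 ± 0.308 under sh1, 16.8 ± 0.485 under sh2, and 25.9, 25.5 and 24.4 with sh3, where it rose by 0.63 (SE 0.05, adjusted p = 2.73e-06). Hif1a fell with sh3, from 36.3 ± 1.72 to 26.4 ± 1.30 FPKM (by 0.45, adjusted p = 0.000822), and its values with sh1 and sh2, 35 ± 5.09 and 39.7 ± 0.469 FPKM, did not pass. Thus with sh3 the mRNA of the HIF subunit was lower and that of its hydroxylase higher.

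The HIF targets outside glycolysis went in both directions. Ndrg1 read 89.8, 88.8 and 86.2 FPKM with shLucif, 126, 121 and 125 with sh1, 115, 108 and 121 with sh2, and 33.4, 35 and 41.4 with sh3. It rose by 0.48 and 0.37 (adjusted p = 0.000257 and 0.0014) and fell with sh3 by 1.25 (SE 0.07, adjusted p = 1.71e-07), and under no hairpin did its values overlap those of the control. Ero1l read 108, 108 and 121 FPKM with shLucif, 108 ± 10.1 under sh1, 121 ± 10.3 under sh2, and 45.2, 41.7 and 49.2 with sh3, where it fell by 1.29 (SE 0.09, adjusted p = 6.2e-07). Ndrg1 and Ero1l were thus low with sh3, while 4 other targets were high. Bnip3l, the close relative of Bnip3, read 9.71, 9.07 and 10.9 FPKM with shLucif and 22.8, 20.3 and 19.8 with sh3, and P4ha2 3.29, 3.11 and 4.46 and then 7.58, 7.92 and 7.66. They rose by 1.01 (SE 0.11) and 0.93 (SE 0.10), with adjusted p of 1.71e-05 and 1.72e-05. Ankrd37, a small ankyrin-repeat protein, averaged 0.659 ± 0.130 FPKM with shLucif and 1.62 ± 0.329 with sh3 (log2 difference 0.66). With sh1 and sh2 it averaged 0.412 and 0.574 FPKM. Ankrd37 thus reached the minimum for testing through sh3, where it is high, and its call adds no support. Bnip3 read 10.6, 8.83 and 14.4 FPKM with shLucif and 24.1, 19.2 and 18.9 with sh3, a rise of 0.84 (adjusted p = 0.0164) that missed the threshold without shLucif replicate 2 or sh3 replicate 1 (0.0639 and 0.0606). P4ha2 also passed with sh2 (4.57 ± 0.480 FPKM, log2 difference 0.28, adjusted p = 0.0463), a call lost when 1 of 4 libraries was left out (adjusted p 0.115 to 0.166). Car9, a membrane carbonic anhydrase, varied widely within groups: it read 2.97, 1.57 and 5.09 FPKM with shLucif and 1.07, 0.0867 and 1.25 with sh1. Its sh1 difference of -1.21 passed at an adjusted p of 0.0425 and missed the threshold without shLucif replicate 1 or 3 (0.0904 and 0.153) or without either of 2 sh1 libraries (0.0583 and 0.154). Vegfa, at 31.6 ± 0.801 FPKM with shLucif, did not pass with any hairpin (28.1 ± 2.78 with sh3, adjusted p = 0.0524).

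**Figure D4:**
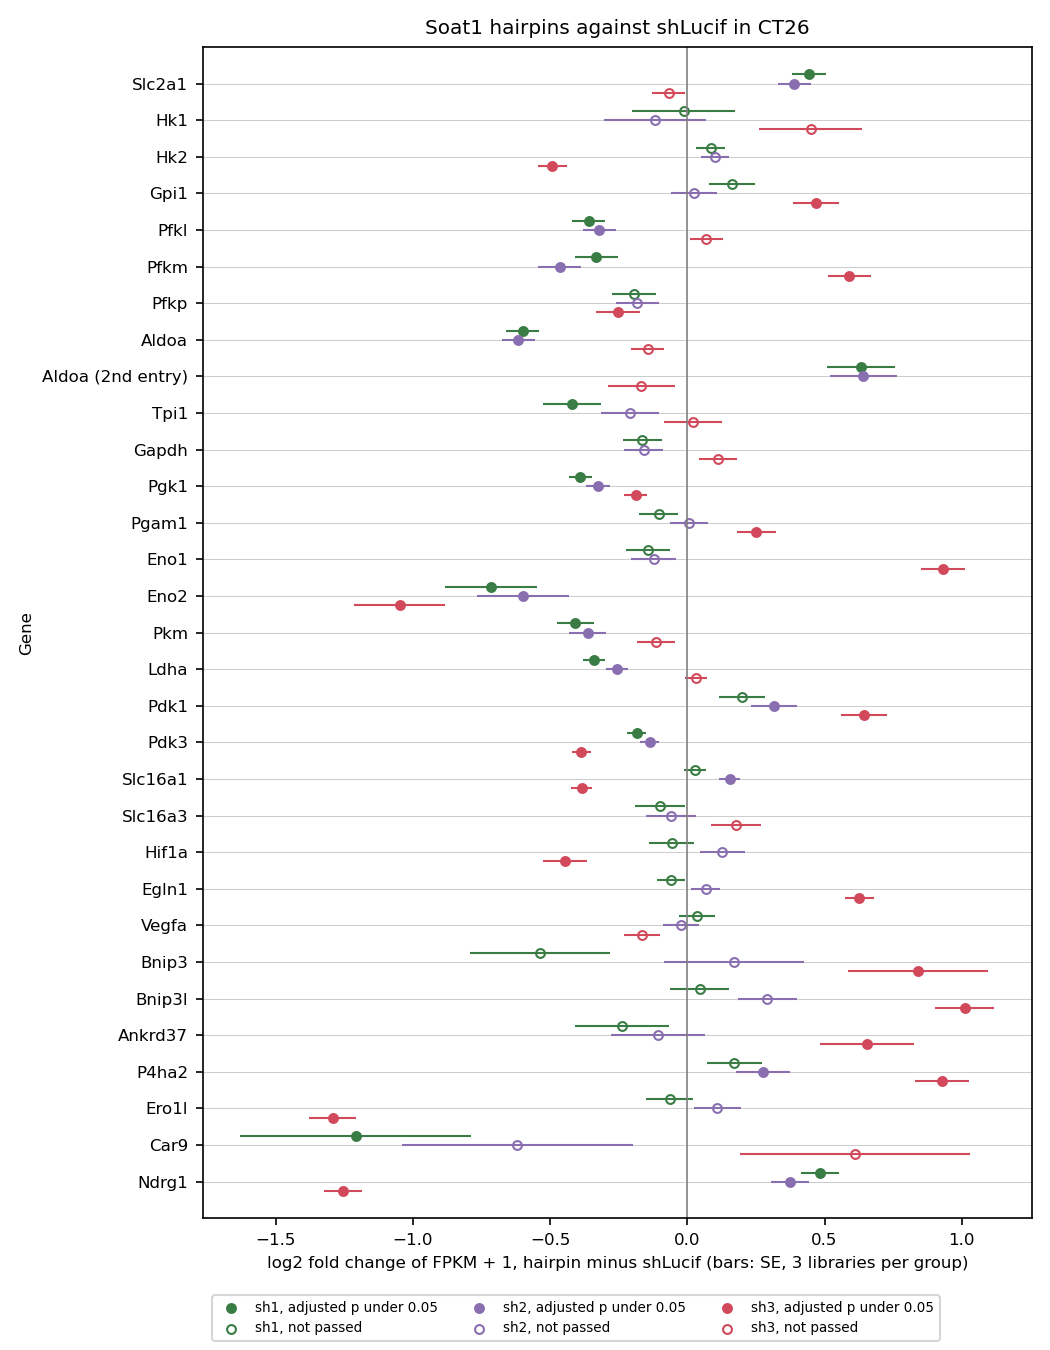
Log2 fold change of FPKM + 1 against shLucif in CT26 for sh1 (green), sh2 (purple) and sh3 (red), where bars are standard errors over 3 libraries per group and filled points passed an adjusted p of 0.05. For Ndrg1, Ero1l, Eno1 and Pfkm the green and purple points lie near each other and the red ones stand apart, at -1.25, -1.29, 0.93 and 0.59, whereas for Bnip3 and Car9 the green and purple points lie apart.

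The 3 hairpins were then compared with each other, and the contrasts of sh1 with sh2, and of sh3 with their mean, were chosen after the data were seen. A difference somewhere among the 3 passed for 28 of 31 entries, against 55.2% of all genes. Between sh1 and sh2 none of 31 passed (limma), against 0.0169% of all genes, which is 2 of 11832, and 5 members had an unadjusted p under 0.05, as 8.31% of all genes did. The 95% intervals of the difference were narrow for Ldha (-0.17 to 0.00), Aldoa (-0.12 to 0.15) and Pgk1 (-0.16 to 0.03). They were wide for Car9 (-1.51 to 0.34) and Bnip3 (-1.27 to -0.14), so these data do not show that sh1 and sh2 act alike on them. Over the 11832 genes tested in these 4 groups, a wider set than the genes expressed in each group that gave the correlations in the opening, sh1 and sh2 libraries correlated at 0.9891 to 0.9903 with each other and at 0.9887 to 0.9918 within their groups, whereas sh3 libraries correlated with either at 0.9508 to 0.9632.

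Between sh3 and the mean of sh1 and sh2, 30 of 31 entries passed, against 60.2% of all genes, with 20 higher (35.5% of all genes were) and 10 lower in sh3 (24.7%). The 20 include Ankrd37, which reached the minimum for testing through sh3. Pfkp, the platelet phosphofructokinase, was the exception (adjusted p = 0.436). The median log2 difference was 0.30 over the members and 0.06 over all genes. Higher in sh3 were 6 of 9 entries of upper glycolysis, 5 of 6 of lower glycolysis, 3 of 5 of pyruvate and lactate handling and 5 of 8 other HIF targets. Eno1 and Pfkm were higher by 1.06 and 0.99 (SE 0.07 for both), and Aldoa, Ldha and Pkm by 0.46, 0.33 and 0.27. Lower in sh3 were Ndrg1 (by 1.68, SE 0.06), Ero1l (by 1.31, SE 0.07), Hk2 (by 0.58), Slc2a1, Hif1a and Slc16a1 (by 0.48 each). The differences for Eno2, Vegfa, Slc16a3 and Hk1 lost their call when single libraries were left out (adjusted p up to 0.175, 0.126, 0.0909 and 0.0922). A HIF core stood at the start of 17 of 19 genes higher in sh3 and of 7 of 8 lower in sh3, among those with a start site in RefSeq, against 29 of 32 over all members with one. The summed level of the fibroblast marker list was higher in sh3, with 7 of its 12 genes at 1 FPKM or more in each of the 4 groups and sums of 504 to 518 FPKM in shLucif, 483 to 494 in sh1, 448 to 478 in sh2 and 763 to 852 in sh3, and its part in the result was not tested. Single genes of that list went both ways against the mean of sh1 and sh2: 4 of the 7 tested were higher in sh3 (Vim by 0.90, Fn1 by 0.72, Col1a1 by 1.40 and Col1a2 by 0.50 on the log2 scale) and 3 had lower values (Col3a1 -0.32, Pdgfra -0.51 and Pdgfrb -0.30), while Thy1 was at 0 in all 4 groups and Postn at or near 0. The leukocyte list had at most 1 of 12 genes at 1 FPKM or more in these groups, and the endothelial list 0 of 8.

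**Figure D5:**
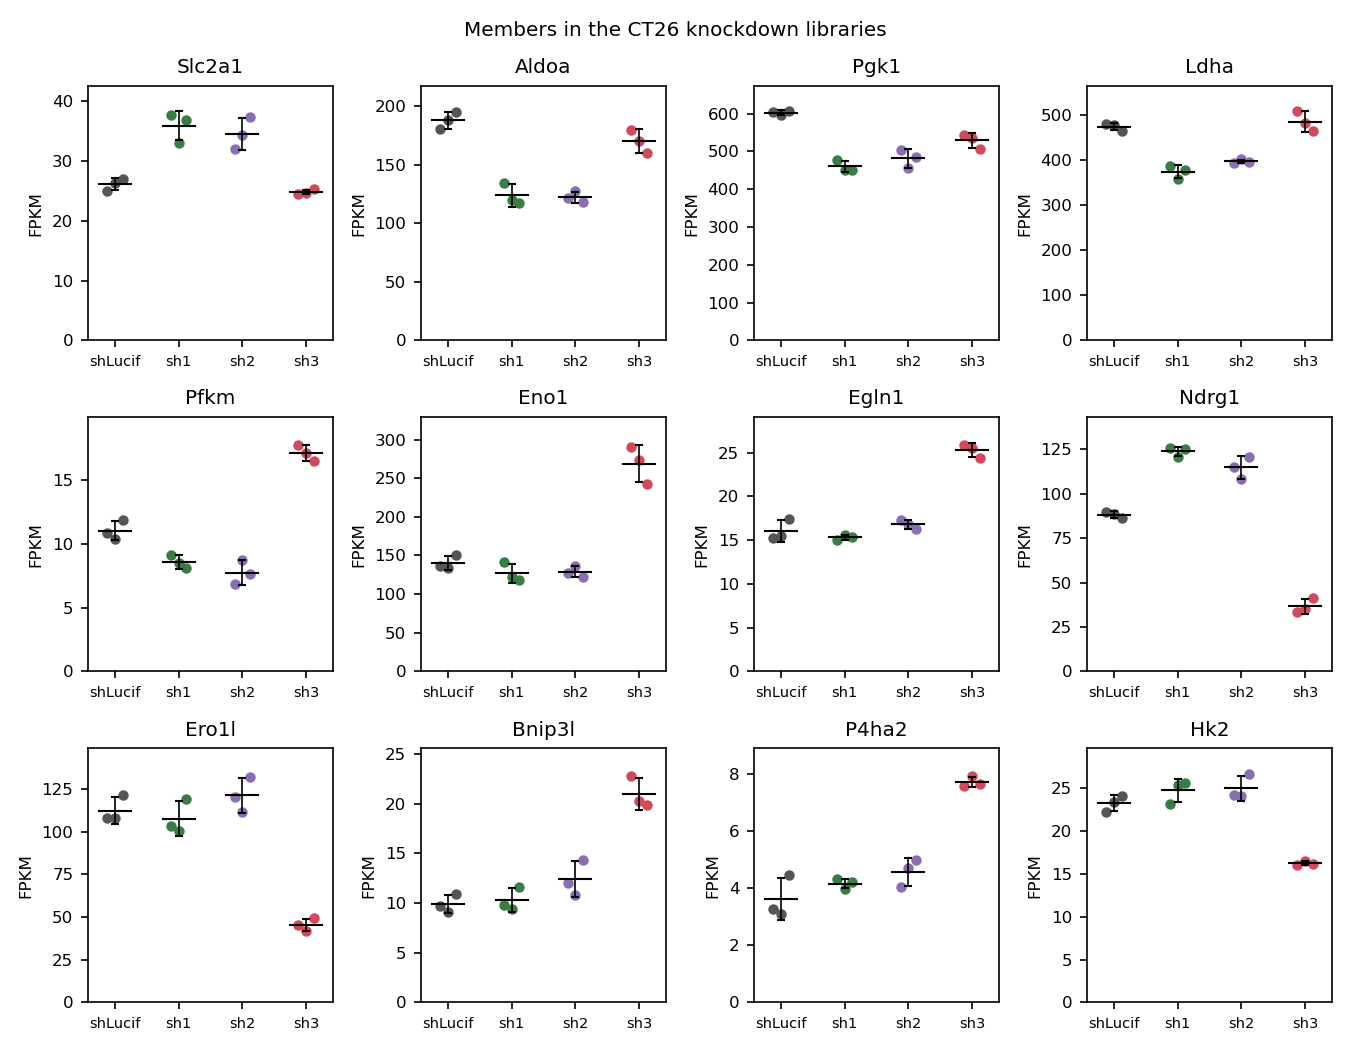
FPKM of 12 genes in the 12 CT26 knockdown libraries, where points are libraries, the wide line is the mean and the bar is the SD of 3 libraries. Aldoa, Pgk1 and Ldha are lower in sh1 and sh2 than in shLucif, and Eno1, Egln1, Bnip3l and P4ha2 are high and Ndrg1, Ero1l and Hk2 low in sh3.

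In the rest of glucose metabolism, 34 of 54 genes were tested in these lines, and 7 rose and 6 fell with sh1, 8 rose and 7 fell with sh2, and 9 rose and 10 fell with sh3. Over all genes, 19.1% rose and 18.7% fell with sh1, 18.9% and 20.0% with sh2, and 30.9% and 21.6% with sh3. Rpia and Tkt, enzymes of the pentose phosphate pathway, passed with sh1, sh2 and sh3 alike. Rpia averaged 8.20 FPKM in the control and 2.63, 2.85 and 4.86 FPKM under sh1, sh2 and sh3 (log2 difference -1.34, -1.26 and -0.65), and Tkt averaged 18.2, 30.0, 28.2 and 27.6 FPKM (0.69 with sh1, 0.60 with sh2 and 0.58 with sh3). Pgm2, which handles sugar phosphates, fell with sh1 and sh2, from 15.9 to 8.06 and 8.6 FPKM. With sh3, Pgd, another pentose phosphate enzyme, rose by 0.83, Pdha1, a subunit of pyruvate dehydrogenase, by 0.70, and Gpd2, the mitochondrial glycerol phosphate dehydrogenase, fell by 0.73. Of the 46 other hypoxia genes, 33 were tested, and 6 rose and 9 fell with sh1, 7 rose and 7 fell with sh2, and 13 rose and 9 fell with sh3, against the same shares of all genes. Car12, a relative of Car9, averaged 2.57 FPKM in the control and 5.20, 4.78 and 4.49 FPKM under sh1, sh2 and sh3, and Ddit4, an inhibitor of mTOR signalling, 34.8 FPKM and then 23.9, 23.8 and 21.6 FPKM.

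In Hepa1-6 the knockdown table holds 2 control groups, and the members differed between them about as often as other genes did. The 22 of 32 entries that passed (9 higher and 13 lower with scramble) stood against 68.2% of all genes (31.4% higher and 36.8% lower), and under quantile normalization the split was 12 higher and 11 lower. Every value below rests on the libraries labelled Hepa1-6 shLucif, which went against the liver markers as given above (hepatocyte list sum 93.8 to 102.6 against 745.8 to 796.7 FPKM, with Ttr, Fga and Tat at 0), and the part of this in the result was not tested. Pdk3 read 10.9, 10.3 and 10.6 FPKM with shLucif and 0, 0 and 0.0406 with scramble, and Slc16a3 read 13.4, 11.2 and 10.4 and then 0.231, 0.180 and 0.227 (log2 difference -3.38). Both reached the minimum for testing only with shLucif, so their calls add no support beyond these values. With scramble both genes stood where they did in Hepa1-6 with DMSO (0 and 0.0912 FPKM), although the tables were normalized separately. Egln3 read 9.18, 6.6 and 8.79 FPKM with shLucif and 18.5, 26.9 and 22.3 with scramble (log2 difference 1.36, SE 0.16). Eno2 averaged 4.52 ± 0.677 FPKM with shLucif and 1.29 ± 0.0196 with scramble (-1.26, SE 0.09).

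All 5 tested genes of pyruvate and lactate handling except Pdk1 were lower with scramble, as were 4 of 6 of lower glycolysis. Ldha read 630, 686 and 689 FPKM with shLucif and 532, 469 and 495 with scramble (-0.42, SE 0.06). Pkm (-0.47), Eno1 (-0.53), Gpi1 (-0.67) and Pfkm (-0.45) were lower too, and the share of Eno1b in the Eno1 pair was 45.1% with shLucif and 11.7% with scramble. Aldoa ran against them, at 401, 395 and 442 FPKM with shLucif and 550, 574 and 596 with scramble (0.47, SE 0.05), as did its relative Aldoc, at 1.35 ± 0.371 and 3.0 ± 0.304 FPKM (0.78), and Slc2a1, at 37.0, 39.8 and 43.7 and 52.4, 63.2 and 59.0 FPKM (0.52, SE 0.09). Hif1a, the HIF subunit, fell from 39.6 ± 0.330 to 24.4 ± 0.286 FPKM (by 0.68, SE 0.03) and the oxygen sensor Egln1 from 39.3 ± 2.54 to 31.3 ± 2.25 (by 0.32). Ndrg1 read 7.22, 7.06 and 9.16 FPKM with shLucif and 18.9, 27.9 and 26.1 with scramble (1.51, SE 0.16), and Ero1l 33.1, 28.7 and 32.9 and then 20.3, 23.9 and 21.3 (-0.51). Bnip3, at 44.5 ± 4.42 and 48.4 ± 10.2 FPKM, did not pass. The calls of Pgam1, Bnip3l and Slc16a1 were lost when single libraries were left out (adjusted p up to 0.128, 0.071 and 0.133). In the 36 other genes of glucose metabolism tested, 12 were higher and 18 lower with scramble, and in 35 other hypoxia genes 22 were higher and 7 lower. Over all genes, 31.4% were higher and 36.8% lower. Pklr averaged 0.33 FPKM with shLucif and 14.9 with scramble, and Plod2 averaged 12.2 and 0.00321.

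The paired isoforms of the family held different shares in the groups. Pdk3 made up 71.2% of the FPKM of Pdk1 and Pdk3 in CT26 with DMSO, 69.4% with stk, and 83.1%, 78.7%, 77.7% and 69.3% in shLucif, sh1, sh2 and sh3. In Hepa1-6 its share was 0% with DMSO or stk and 46.4% in the libraries labelled shLucif. Egln3 made up 23.2% of Egln1 and Egln3 in Hepa1-6 with DMSO, 22.5% with stk, 17.3% in the libraries labelled shLucif and 41.9% with scramble, and 0% in all CT26 groups. Hk2 made up 54.4% of Hk1 and Hk2 in CT26 with DMSO, 56.8% with stk, and 74.9%, 76.3%, 78.0% and 59.5% in shLucif, sh1, sh2 and sh3. In Hepa1-6 it made up between 50.5% and 57.6%. Slc16a3 made up 8.9% of the FPKM of Slc16a1 and Slc16a3 in CT26 with DMSO, 9.9% with stk, and 6.3%, 5.7%, 5.4% and 9.3% in shLucif, sh1, sh2 and sh3. Its share in Hepa1-6 was 0.2% with DMSO or stk, 0.4% with scramble and 16.5% in the libraries labelled shLucif. Eno2 held 11.4% of Eno1 and Eno2 in CT26 shLucif, 7.8% in sh1, 8.2% in sh2 and 3.0% in sh3, and at most 1.9% elsewhere. These Eno2 shares leave out Eno1b, which may share reads with Eno1. Eno1b held 52.3% of the Eno1 and Eno1b pair in CT26 shLucif and 15.3% in Hepa1-6 with DMSO. The Eno2 shares are therefore not comparable between the lines. Among the phosphofructokinase subunits the order was the same in all 10 groups: the group means of Pfkl ran from 15.8 to 38.4 FPKM, those of Pfkm from 7.76 to 22.1 and those of Pfkp from 1.85 to 4.44. Aldoa averaged 122 FPKM or more in every group, and Aldoc at most 3.0. Group means of Bnip3 ran from 6.59 to 48.4 FPKM and those of Bnip3l from 9.91 to 26.5. FPKM are scaled to transcript length, which is what allows levels of different genes to be set side by side here, except where near copies may share reads.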

How the data were processed

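Gene expression was measured by RNA sequencing of total RNA. The authors deposited 2 tables of FPKM, 1 per experiment, and each was assigned by its column names, which are swapped against the table names. Per the labels' protocols, sequencing was paired-end and Skewer did the trimming. The submitters' processing notes name GRCm38, HISAT2, STAR, DESeq2 and edgeR, and which of them made the FPKM is not given in the sources used here. Of 45 labelled samples, 30 have a matching column; 21 columns match no label and were not used. The sh1 columns could be tied to their group but not to single samples. FPKM carry no read totals, so the precision rests on the spread of 3 libraries per group; an exact permutation test of 3 against 3 cannot go below 0.1.

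Two-sided tests were made on log2(FPKM + 1) in limma 3.58.1 (R 4.3.3), moderating variances along a trend with expression, for genes reaching 1 FPKM in 3 or more libraries that entered the model, with Benjamini-Hochberg adjustment over all genes tested and a threshold of 0.05. A fold change on this scale understates that of low genes. The models held all 4 drug groups for the line and difference tests, the 2 groups of a line for stk, the 4 CT26 knockdown groups, and the 2 Hepa1-6 controls. The code was tested on simulated data. The members, the role groups and the lists of other genes were chosen with earlier results of these data known. Named genes are, per comparison, up to 12 called members by size of log2 fold change (with fewer than 4 called, the 4 with the lowest p), the isoform pairs, and up to 6 called genes per other list; further members are given where they complete a role. Alternatives were a pseudocount of 0.1, no filter, a minimum of 5 FPKM, quantile normalization, protein-coding genes, no trend, leaving out each library, and a replicate block. The comparisons sh1 against sh2 and sh3 against the mean of both were added after seeing the data. Gene positions are GENCODE vM21 and start sites RefSeq, both GRCm38; Ero1l was found there under Ero1a, and Slc2a3, Bnip3l and Ndrg1 had no entry. Hepa1-6 Soat1 hairpins were not analysed here.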

Additional observations from a re-analysis of the deposited data

How the results depend on the processing

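Of the recomputed counts of members called, 159 stayed within 1.5 times the reported count and 10 did not, and no called member changed sign. All 10 belong to 1 comparison. For stk against DMSO in Hepa1-6, where 1 member was called, the count was 0 without the filter on low values, 2 with a minimum of 5 FPKM, 0 without the mean-variance trend and 0 to 0 when 1 library was left out. The 2 were Slc16a1 and Pgk1 (adjusted p = 0.032 and 0.0417), and fewer genes were tested there. The cause of the other changes was not tested. Of the recomputed values of single members, 4526 kept their side of the threshold, 83 lost and 39 gained a call. Replicate numbers were checked as pairs: deviations of same-numbered libraries correlated between -0.05 and 0.105, and no set of 3 pairs was above 0.1 throughout. No pairing by number was thus seen, but 3 pairs are too few to show that there is none. With the replicate block, members called were 0 for stk in CT26, 0 for stk in Hepa1-6, 0 for the difference of the lines, 21 between the lines, 16 for sh2, 20 for sh3 and 20 for scramble. The block could not be fitted for sh1, the mean of the hairpins or the comparisons among hairpins, whose sh1 columns carry no single number. No scaling moved the median of all genes by more than 0.1 on the log2 scale. Read totals are unknown, so which values depth limits was not tested.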

Other observations

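Set beside CT26 with DMSO from the other table, which was normalized separately, 22 of 31 members were nearer to the DMSO level with sh3 than with shLucif, against 61.7% of all genes. The counts were 11 with sh1 (48.3% of all genes) and 13 with sh2 (47.6%). Ndrg1 averaged 14.1 FPKM with DMSO, 88.2 with shLucif and 36.6 with sh3, and Ero1l 40.5, 112 and 45.4. Eno1 averaged 331 FPKM with DMSO, 140 with shLucif and 269 with sh3. These genes were picked from the 22, and the rest of the 31 were not nearer with sh3. Among that rest, Pgk1 averaged 639, 603 and 529 FPKM in the same order, and Aldoa 229, 188 and 170.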
